A study of Mus musculus with 8 samples.

Results

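The RNA exosome genes examined here are Exosc1, Exosc2, Exosc3, Exosc4, Exosc5, Exosc7, Exosc8, Exosc9 and Exosc10, together with Mphosph6, which encodes a cofactor of the nuclear exosome. They are the 10 genes, of 37620 Ensembl gene identifiers in the table, whose symbols in the gene name table are these. Their levels were compared between single mouse oocytes at meiotic metaphase II (MII) with and without a deletion of Hira, the gene of a chaperone that places the histone variant H3.3 in chromatin outside DNA replication. Exosc6, the remaining ring subunit, was not analysed here.

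The RNA exosome trims and degrades RNA from its 3′ end in nucleus and cytoplasm. RNase PH-like proteins (EXOSC4 to EXOSC9) form a ring, EXOSC1, EXOSC2 and EXOSC3 form an RNA-binding cap on it, and in mammals the cutting is done by the attached nucleases DIS3, DIS3L and EXOSC10. MPHOSPH6 binds the nuclear form, helps to dock the helicase MTR4 on it, and is needed to mature ribosomal RNA precursors. Transcription has stopped in the MII oocyte, so its RNA is a store laid down during growth and reduced by decay, and in mice oocytes that lack EXOSC10 mature poorly.

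All 8 oocytes came from C57BL/6 mice with floxed Hira alleles (Hira f/f). The 4 WT oocytes, numbered 1, 2, 4 and 5, have the genotype Hira f/f, and the 4 KO oocytes, numbered 1, 3, 5 and 6, have Hira f/f with Gdf9-Cre+, a recombinase driven by the promoter of the oocyte growth factor gene Gdf9. Every sample title, WT ones included, also shows Gdf9-Cre+; grouping was by genotype and description, and by these WT lacks Cre. Age and mother are not in the labels, and oocytes of a genotype may share a mother. Each genotype therefore counts as 1 sample, no test between genotypes is given, and SDs describe the spread between oocytes (n = 4 each).

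Levels are given as the FPKM that the authors deposited: fragments relative to gene length and library total, hence relative values within a library. Library totals are not given and were inferred from the FPKM values and GENCODE M21 gene lengths, taking the lowest common step as 1 read. The inferred totals were 38032455 to 50208686 reads. Hira reads, recovered as the smallest whole numbers that fit, totalled 139 in WT and 4 in KO, few beside these totals. An FPKM of at least 1 was reached by 7121 to 7467 genes in WT and 7827 to 8512 in KO, and the FPKM of all genes summed to 341192 to 343705 in WT and 284336 to 316109 in KO. Of 12 oocyte markers, 11 had at least 1 FPKM in all 8 oocytes, the exception being Figla. Of 14 cumulus and granulosa cell markers, 11 stayed below 1 FPKM in all oocytes, and Amh, Foxl2 and Inha had no read. The other 3 were Cyp19a1, with 7.70 to 29.9 FPKM in all 8 oocytes and means of 21.5 (WT) and 21.8 (KO), Nr5a2, with means of 1.33 and 3.69, and Kitl, with at most 3.55 FPKM. The oocyte markers summed to 15566 to 20679 FPKM in WT and 8983 to 11391 in KO, a difference in the same direction as those of Mphosph6, Exosc3 and Exosc8 below, whose part in those differences was not tested. Most of that sum was Dppa3, with means of 11910 (WT) and 7077 FPKM (KO), and the list did not move as 1: the ratio of means, KO over WT, was 0.370 for Oosp1 and 0.631 for Gdf9 but 1.01 for Nlrp5, 1.07 for Padi6 and 2.76 for Figla. Genes with an FPKM of at least 1 in at least 4 of 8 oocytes were compared, which gave 7833 genes with a median difference of 0.10 between KO and WT on the log2(FPKM + 1) scale. That median was 0.31 when FPKM was rescaled to the same sum in each oocyte and -0.02 with median-of-ratios scaling. Of the 10 genes, 9 passed this filter, 8 of them with at least 1 FPKM in all oocytes of both genotypes, and Exosc5 did not.

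Mphosph6 RNA was among the most abundant in the egg, and that of the exosome subunits was spread over a wide range (the plot of levels by gene). In WT, Mphosph6 (ENSMUSG00000031843, chromosome 8, 117791645 to 117801943, minus strand of GRCm38) averaged 7768 ± 1174 FPKM (SD, n = 4), second among all genes by mean. It ranked 5, 3, 2 and 2 in the WT oocytes and 2, 2, 2 and 7 in the KO oocytes, always below Dppa3, a maternal protector of DNA methylation. Exosc7 followed with 77.4 ± 12.5 FPKM, so that the mean of Mphosph6 was 100.4 times that of the most abundant subunit gene. Mphosph6 alone gave 1.85% to 2.70% of all FPKM in WT oocytes and 1.14% to 1.86% in KO oocytes.

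**Figure D1:**
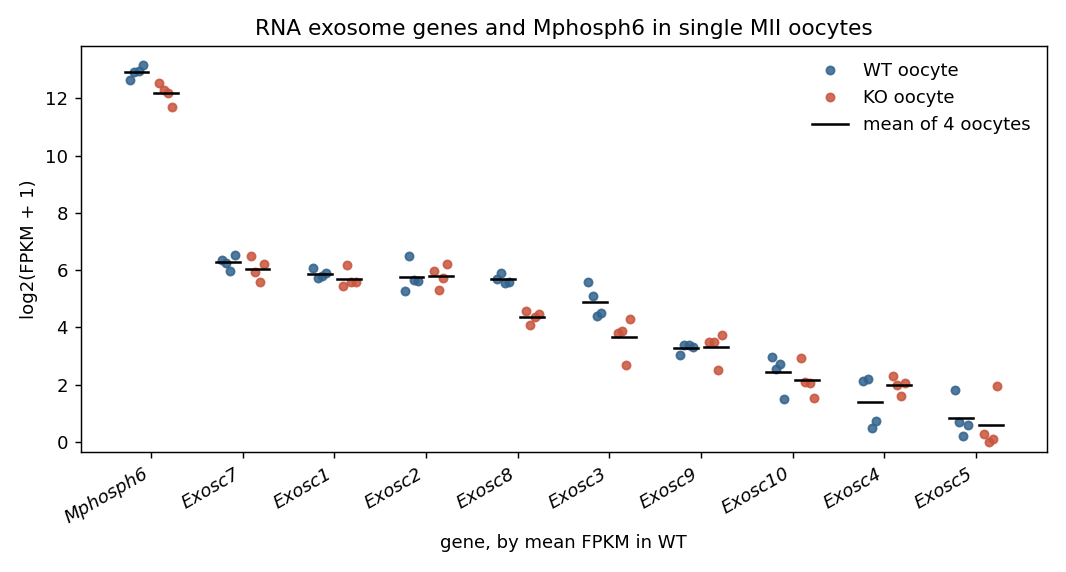
Level of each gene, as log2(FPKM + 1) on the vertical axis, in each of 4 WT (blue) and 4 KO (red) oocytes; black bars are means of the 4 log2 values and genes are ordered by mean FPKM in WT. Mphosph6 stands far above the subunit genes, and the KO points of Exosc8, Exosc3 and Mphosph6 lie below all WT points.

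The subunit genes fell into an upper and a lower range. Exosc7, Exosc1, Exosc2, Exosc8 and Exosc3 had WT means of 77.4, 57.8, 55.7, 50.6 and 30.5 FPKM, and each neighbouring pair in this order had overlapping ranges over the WT oocytes. Between Exosc3 and Exosc9, at 8.77 FPKM, the WT ranges did not overlap, nor between Exosc9 and Exosc10, at 4.76 FPKM. Exosc4 and Exosc5 were lowest, with 2.02 and 0.946 FPKM, and the ranges of Exosc10 and Exosc4 and of Exosc4 and Exosc5 overlapped. In KO the 3 highest were Exosc7, Exosc2 and Exosc1 with overlapping ranges, a gap without overlap separated Exosc1 from Exosc8, and from Exosc8 downwards all neighbours overlapped. These levels divide reads by the gene lengths behind the table, which were recovered from the steps of the values. That length was 1054 bases for Mphosph6, against 2476 exonic bases in GENCODE M21, and 1843 against 6013 for Exosc7, so the order depends on the gene models used.

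The 2 nuclease genes of the core complex outside the list were low as well. Dis3 had 0.112, 1.05, 0.0535 and 1.999 FPKM in WT oocytes 1, 2, 4 and 5 and 0.242, 0.799, 1.09 and 0.437 in KO oocytes 1, 3, 5 and 6. Dis3l, its cytoplasmic counterpart, averaged 1.21 ± 0.773 FPKM in WT and 1.07 ± 0.401 in KO. Both genes overlapped between genotypes and spread widely among WT oocytes. The ratio of Dis3 means, KO over WT, was 0.799 and turned to 1.58 without WT oocyte 5. A stretch of 325 bases is identical between Dis3 and Pibf1, which had means of 16.5 (WT) and 13.2 FPKM (KO). How reads of that stretch were assigned is not stated, so the Dis3 level is uncertain.

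With Hira deleted, Exosc8 and Exosc3 RNA was 2.55-fold and 2.40-fold lower, Mphosph6 was 1.65-fold lower, and the other 7 genes had overlapping genotypes. None of the 10 genes was 2-fold higher in KO, where 18.3% of compared genes were, and 2 were at least 2-fold lower, where 6.84% were. All KO oocytes lay below all WT oocytes for 3 of the 10 genes, against 7.37% of compared genes, and above them for 0, against 13.4%, so that 3 lacked overlap in either direction, against 20.7%. The 2 genes at least 2-fold lower, Exosc8 and Exosc3, were both without overlap, against 3.64%. The median difference over the 10 genes was -0.24 on the log2(FPKM + 1) scale, with 7 lower and 3 higher by mean FPKM, beside 0.10 and 43.7% lower over all compared genes. The median of the 10 genes was -0.07 when FPKM was rescaled to the same sum.

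Mphosph6 held 6329, 7687, 7856 and 9200.0 FPKM in WT oocytes 1, 2, 4 and 5. In KO oocytes 1, 3, 5 and 6 it held 5869, 5045, 4628 and 3285 FPKM. The genotypes did not overlap, but the gap between WT oocyte 1 and KO oocyte 1 was small beside the spread within either genotype. The KO mean was 4707 ± 1079 FPKM, a log2 difference of -0.74 and a ratio of means, KO over WT, of 0.606, which ranged from 0.556 without KO oocyte 1 to 0.667 without KO oocyte 6. Rescaled to the same FPKM sum, the WT oocytes held 5903 to 8606 and the KO oocytes 3640 to 5925, so that KO oocyte 1 came to lie above WT oocyte 1, and KO was 1.43-fold lower. With that scaling all KO oocytes lay below all WT oocytes for 1 of the 10 genes, Exosc8, against 4.46% of compared genes. Of the compared genes, 8.26% had a more negative difference than Mphosph6. These values rest on 287856 to 415755 reads per WT oocyte and 164023 to 267419 per KO oocyte. A processed pseudogene, Gm11448, is 96.5% identical to Mphosph6 over 458 bases with mean FPKM of 13.5 (WT) and 10.003 (KO). How reads that fit both were assigned is not stated.

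**Figure D2:**
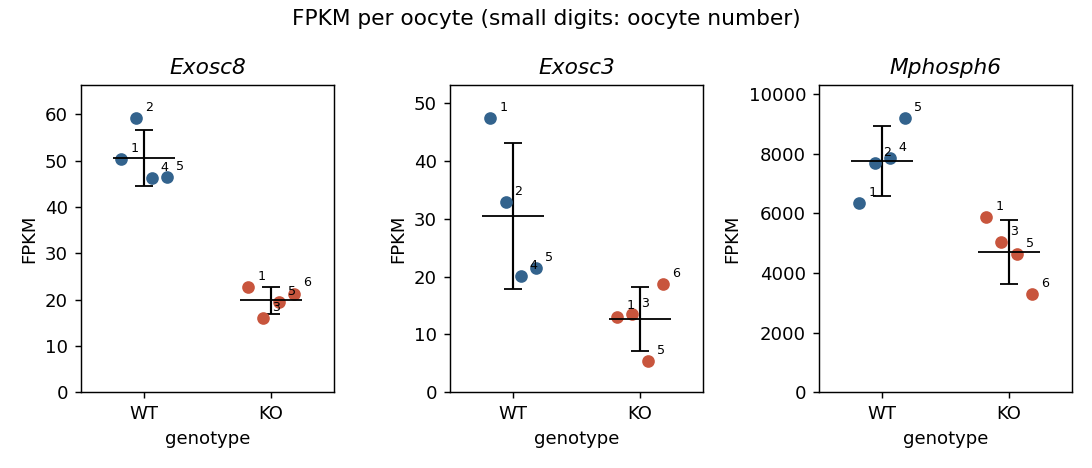
FPKM per oocyte of Exosc8, Exosc3 and Mphosph6 on linear axes from 0, with the oocyte number beside each point; bars give the mean and SD of 4 oocytes. Exosc8 separates WT (46.1 to 59.2) from KO (16.0 to 22.7) widely, while the nearest WT and KO oocytes are close for Exosc3 (20.1 and 18.8) and Mphosph6 (6329 and 5869).

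Among the cap genes only Exosc3 differed by 2-fold. Exosc3 (ENSMUSG00000028322, chromosome 4, 45316613 to 45342732, minus strand) encodes a cap protein with S1 and KH RNA-binding domains and is mutated in a human cerebellar disease. It had 47.5, 32.9, 20.1 and 21.5 FPKM in WT oocytes 1, 2, 4 and 5 and 13.1, 13.5, 5.41 and 18.8 in KO oocytes 1, 3, 5 and 6. No KO oocyte reached the lowest WT oocyte, though KO oocyte 6 came near it. The means were 30.5 ± 12.7 and 12.7 ± 5.50 FPKM, 2.40-fold lower in KO, with a log2 difference of -1.23. Without WT oocyte 1 the fold was 1.96, and with FPKM rescaled to the same sum it was 2.08, with KO oocyte 6 above WT oocytes 4 and 5. Of its exonic bases 4.00% are shared with Dcaf10 on the opposite strand, and no label or header says whether strand was used.

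Exosc1 (ENSMUSG00000034321, chromosome 19, 41922292 to 41933423, minus strand), the cap subunit related to yeast Csl4, had 66.4, 51.3, 54.3 and 59.3 FPKM in the WT oocytes and 42.5, 70.7, 46.5 and 46.8 in the KO oocytes. KO oocyte 3 held the highest value of all 8 and the other 3 KO oocytes the lowest 3. The means of 57.8 ± 6.60 and 51.6 ± 12.9 FPKM overlapped within their SDs. The difference of -0.18 turned to 0.03 with FPKM rescaled to the same sum, and without KO oocyte 3 all KO oocytes lay below all WT oocytes.

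Exosc2 (ENSMUSG00000039356, chromosome 2, 31670715 to 31681349, plus strand), the cap subunit related to yeast Rrp4, had 37.1, 88.9, 49.2 and 47.7 FPKM in the WT oocytes and 62.0, 38.1, 52.5 and 72.7 in the KO oocytes. Its KO values all lay between the lowest and the highest WT oocyte, and the means of 55.7 ± 22.7 and 56.3 ± 14.7 FPKM were nearly equal. The 3 cap genes thus differed among themselves. Within single oocytes Exosc1 exceeded Exosc3 by 1.399, 1.56, 2.70 and 2.76 times in WT and by 3.25, 5.23, 8.60 and 2.50 times in KO, a ratio that does not depend on the scaling of a library. The ratio of KO oocyte 6 was within the WT range. Gm13427 on the opposite strand shares 12.4% of the exonic bases of Exosc2 but had no read.

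Of the ring genes, Exosc8 had the widest separation. Exosc8 (ENSMUSG00000027752, chromosome 3, 54728678 to 54735393, minus strand) encodes a ring subunit that has lost the catalytic residues of bacterial RNase PH, as its relatives in the mammalian ring have. WT oocytes 1, 2, 4 and 5 had 50.3, 59.2, 46.1 and 46.5 FPKM, and KO oocytes 1, 3, 5 and 6 had 22.7, 16.0, 19.4 and 21.3. The highest KO oocyte, 22.7, lay far below the lowest WT oocyte, 46.1, and the spread within each genotype was small beside the gap. The means were 50.6 ± 6.09 and 19.9 ± 2.90 FPKM, 2.55-fold lower in KO, with a log2 difference of -1.31, and 2.18% of compared genes had a more negative one. The fold lay between 2.20 with FPKM rescaled to the same sum and 2.81 with median-of-ratios scaling, and between 2.39 and 2.67 when any 1 oocyte was left out. It rests on 7017 to 10648 reads per WT oocyte and 2479 to 4005 per KO oocyte. Of the exonic bases of Exosc8, 2.05% are shared with Supt20 on the opposite strand, whose level is not given here.

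Exosc7 (ENSMUSG00000025785, chromosome 9, 123113215 to 123136129, plus strand), also a ring subunit, had 81.7, 75.5, 61.3 and 91.0 FPKM in the WT oocytes and 88.4, 59.7, 46.6 and 72.5 in the KO oocytes. The genotypes overlapped, with means of 77.4 ± 12.5 and 66.8 ± 17.8 FPKM. The ratio of Exosc7 to Exosc8 within an oocyte was 1.62, 1.28, 1.33 and 1.96 in WT and 3.89, 3.73, 2.40 and 3.404 in KO. All KO oocytes had a larger ratio than all WT oocytes, and the scaling of a library does not change this ratio. Exosc8 alone already separated the genotypes, so the ratio is not separate evidence.

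Exosc9 (ENSMUSG00000027714, chromosome 3, 36552606 to 36565727, plus strand), a ring subunit known in humans as an autoantigen of polymyositis and scleroderma, had mean FPKM of 8.77 ± 1.096 (WT) and 9.31 ± 3.26 (KO). WT oocytes held 7.20 to 9.53 FPKM, and KO oocytes 1, 3 and 6 were above that range at 10.1, 10.2 and 12.3 while KO oocyte 5 was below it at 4.66. Without KO oocyte 5 the KO oocytes all lay above the WT oocytes. Ccna2, the cyclin A2 gene on the opposite strand, shares 10.8% of the exonic bases of Exosc9. Its means were 26.1 FPKM (WT) and 39.0 (KO), so the Exosc9 value is uncertain without strand.

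Exosc4 (ENSMUSG00000034259, chromosome 15, 76327397 to 76330677, plus strand), a ring subunit, had 3.42, 3.62, 0.399 and 0.649 FPKM in the WT oocytes and 3.97, 2.94, 2.03 and 3.18 in the KO oocytes. The WT oocytes split into a pair at the KO level and a pair far below it. The KO mean was 1.498 times the WT mean, 3.03 ± 0.801 against 2.02 ± 1.73 FPKM, and 2.03 times without WT oocyte 2. Oplah on the opposite strand shares 19.8% of its exonic bases but had no read.

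Exosc5 (ENSMUSG00000061286, chromosome 7, 25659164 to 25671368, plus strand), the ring subunit with the fewest reads, had 2.50, 0.621, 0.155 and 0.511 FPKM in the WT oocytes and 0.225, 0, 0.0660 and 2.85 in the KO oocytes. Each genotype had 1 oocyte far above the rest. KO oocyte 6 held 139 of 152 KO reads and WT oocyte 1 held 111 of 168 WT reads. The ratio of means, 0.830, was 1.83 without WT oocyte 1, and KO was 9.77-fold lower without KO oocyte 6, so Exosc5 has no steady direction in these oocytes. Tmem91 on the opposite strand shares 5.66% of its exonic bases.

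Exosc10 (ENSMUSG00000017264, chromosome 4, 148558429 to 148582401, plus strand) encodes the nuclear exosome nuclease related to yeast Rrp6. It had 6.75, 4.80, 5.67 and 1.81 FPKM in the WT oocytes and 6.66, 3.28, 3.19 and 1.91 in the KO oocytes. Both genotypes ran from about the same low to about the same high value. The difference of means, 4.76 ± 2.12 against 3.76 ± 2.03 FPKM, was within the SD of either genotype.

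**Figure D3:**
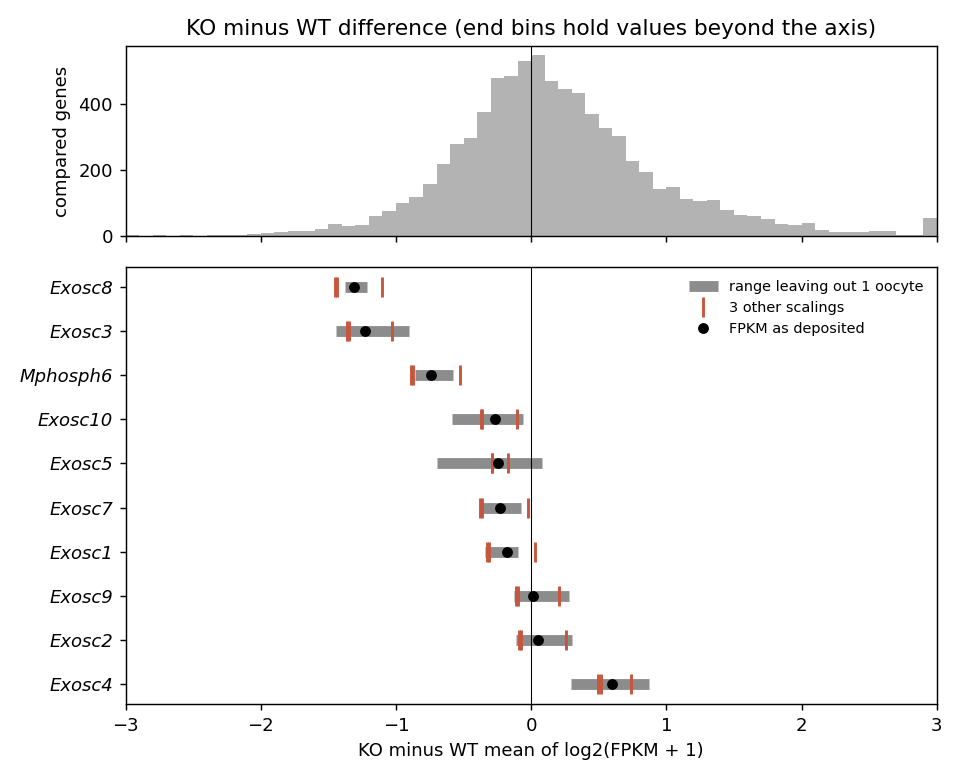
Top: number of compared genes by KO minus WT difference of mean log2(FPKM + 1). Bottom: the same difference for each of the 10 genes (black), its range when any 1 oocyte is left out (grey) and its value under 3 other scalings (red ticks). Exosc8 (-1.31), Exosc3 (-1.23) and Mphosph6 (-0.74) stay below 0 in every setting drawn, while Exosc1, Exosc2, Exosc5 and Exosc9 cross it.

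Summed over the 9 subunit genes, FPKM was 302.8, 326.3, 246.8 and 277.8 in the WT oocytes and 249.6, 214.5, 180.4 and 252.4 in the KO oocytes. The genotypes overlapped, as KO oocytes 1 and 6 exceeded WT oocyte 4. Mphosph6 exceeded this sum by 20.9 to 33.1 times in WT and by 13.0 to 25.7 times in KO, again with overlap. Mphosph6 and the subunit genes did not move as 1 block between oocytes: in WT, oocyte 5 had the highest Mphosph6 and oocyte 2 the highest subunit sum.

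The genes whose profile over the 8 oocytes was closest to Mphosph6 were Zbtb21, Paip1 and Rnf17, by the root mean square distance between log2(FPKM + 1) values centred on each gene's mean. The distances were 0.09, 0.12 and 0.12. Paip1, which encodes a partner of the poly(A)-binding protein in translation, had means of 1837 (WT) and 1123 FPKM (KO), Zbtb21 81.4 and 51.1, and Rnf17 52.9 and 33.5. For Exosc8 the closest were Clvs2, Dnajb4 and C330018D20Rik at 0.18, 0.19 and 0.20. Dnajb4, a co-chaperone gene, had means of 260.0 (WT) and 105.8 FPKM (KO). Mphosph6 and Exosc8 were each other's nearest gene within the 10, at a distance of 0.43, well beyond these. All profiles share the same 8 libraries and their scaling.

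Start regions are printed for the 3 genes whose genotypes did not overlap and for Exosc7, a subunit gene of the upper range whose genotypes overlapped, so that they can be read side by side. They come from RefSeq on GRCm38.p6, run from 250 bases before to 50 after the gene start in the direction of the gene, and were found for 8 of the 10 genes, with a pair of starts for Exosc10 counted as 1 gene. The start is that of RefSeq; for Exosc3 it lies well inside the GENCODE span given above, whose upstream end comes from a single transcript with an incomplete start. Capitals mark matches, on either strand, to GGGCGG (the GC box), CCAAT and CCGGAAG (an ETS site). The windows are chr8:117801925-117802224 (minus strand) for Mphosph6, chr4:45320567-45320866 (minus strand) for Exosc3, chr3:54735315-54735614 (minus strand) for Exosc8 and chr9:123112981-123113280 (plus strand) for Exosc7.
Mphosph6: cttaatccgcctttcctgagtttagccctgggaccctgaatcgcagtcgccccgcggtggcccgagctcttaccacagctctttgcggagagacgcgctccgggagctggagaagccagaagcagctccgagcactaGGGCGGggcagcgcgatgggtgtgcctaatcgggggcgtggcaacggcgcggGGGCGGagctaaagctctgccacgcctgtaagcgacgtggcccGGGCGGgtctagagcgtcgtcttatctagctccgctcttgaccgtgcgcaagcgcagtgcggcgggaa
Exosc3: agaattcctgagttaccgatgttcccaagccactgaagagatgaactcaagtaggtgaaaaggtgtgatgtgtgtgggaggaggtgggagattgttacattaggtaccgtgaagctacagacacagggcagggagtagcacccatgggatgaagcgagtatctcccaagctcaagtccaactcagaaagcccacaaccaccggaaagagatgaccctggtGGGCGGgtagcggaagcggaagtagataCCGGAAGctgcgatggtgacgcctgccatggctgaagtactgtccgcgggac
Exosc8: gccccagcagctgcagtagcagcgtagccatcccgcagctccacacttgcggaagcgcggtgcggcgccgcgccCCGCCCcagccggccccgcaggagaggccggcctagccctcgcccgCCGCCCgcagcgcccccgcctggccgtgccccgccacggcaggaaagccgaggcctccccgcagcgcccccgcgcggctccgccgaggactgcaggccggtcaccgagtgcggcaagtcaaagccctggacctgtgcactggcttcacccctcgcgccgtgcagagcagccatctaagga
Exosc7: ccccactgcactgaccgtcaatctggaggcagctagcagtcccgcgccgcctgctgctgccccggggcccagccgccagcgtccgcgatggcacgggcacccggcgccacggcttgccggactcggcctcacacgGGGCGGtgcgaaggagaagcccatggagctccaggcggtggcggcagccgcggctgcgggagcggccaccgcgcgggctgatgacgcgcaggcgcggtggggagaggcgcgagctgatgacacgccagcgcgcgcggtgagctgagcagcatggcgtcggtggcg

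GC boxes were more common in the windows of these genes than over all windows. GGGCGG was found in 7 of the 8 genes, against 35.7% of 32851 RefSeq windows of the same length, with 3 matches in Mphosph6, 2 in Exosc8 and 1 each in Exosc3 and Exosc7. TATAAA was found in 0 of 8 genes, against 13.6% of windows, a share too small to set 8 genes apart. CCAAT was found in 3 genes, none of them among the 4 printed, against 37.4%, and CCGGAAG in Exosc3 and Exosc10, against 8.86%. TAATTG, bound by the oocyte factor NOBOX, was found in 0 of 8 genes and in 2628 of all windows. GC content was 75.7% in Exosc8, 75.3% in Exosc7, 54.0% in Exosc3 and 66.0% in Mphosph6, with a median of 52.7% over all windows. No searched motif set the 3 lower genes apart from Exosc7.

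The starts of 4 subunit genes lie within 1000 bases of the start of a gene on the opposite strand that points away. These are Exosc1 with Zdhhc16 at 131 bases, Exosc5 with Bckdha at 392, Exosc7 with Zdhhc3 at 37 and Exosc8 with Alg5 at 175. All 4 neighbours stayed below 1 FPKM in every oocyte, with a highest value of 0.962 for Zdhhc16 in WT oocyte 1. Exosc7, Exosc1 and Exosc8 RNA was thus measured at 16.0 FPKM or more in oocytes where the gene across the start region stayed below 1 FPKM.

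Genes that work beside the exosome differed in both directions (the plot of RNA decay and rRNA processing lists). Of 15 compared nuclear exosome cofactors, 1 exceeded WT by 2-fold or more and 1 was lower by as much, beside 18.3% and 6.84% of all compared genes. C1d, which encodes an RNA-binding partner of EXOSC10, had means of 1.58 ± 0.288 (WT) and 6.87 ± 3.43 FPKM (KO), a ratio of 4.34, with no overlap. The count of higher cofactors was 0 with a filter on a mean FPKM of at least 5, which leaves C1d out. Rbm26, of the nuclear poly(A) tail exosome pathway, averaged 24.2 ± 4.45 and 12.1 ± 1.197 FPKM with no overlap, a ratio of 0.499. Leaving out WT oocyte 4, KO oocyte 5 or KO oocyte 6 gave ratios of 0.549, 0.504 and 0.520, and rescaling to the same FPKM sum gave 0.577. Gm17066 shares 415 bases with Rbm26. Zcchc8, the scaffold of the nuclear exosome targeting complex, had 75.5 ± 14.6 FPKM in WT and 39.5 ± 14.2 in KO with no overlap, and Tent4a, a poly(A) polymerase related to those that mark exosome targets, had 51.0 ± 9.08 and 67.0 ± 9.79 with overlap. The ratio of Zcchc8 was 0.523, and 0.485, 0.493 and 0.448 without WT oocyte 5, KO oocyte 1 and KO oocyte 3. Rescaled to the same FPKM sum it was 0.602, and KO oocyte 3 then lay above WT oocyte 5.

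Among cytoplasmic partners and other 3′ nucleases the counts were small and near those of all compared genes. Of 4 compared genes of the SKI complex and ribosome rescue, 1 (Pelo) was 2-fold higher and 0 were 2-fold lower, beside 18.3% and 6.84% of all compared genes. That count was 0 with median-of-ratios scaling, with upper-quartile scaling and with a filter on a mean FPKM of at least 5. Pelo, a ribosome rescue factor, had means of 3.13 ± 0.665 (WT) and 6.40 ± 1.15 FPKM (KO), a ratio of 2.04 with no overlap. Leaving out WT oocyte 5, KO oocyte 1 or KO oocyte 5 gave ratios of 1.86, 1.94 and 1.95. An annotated copy, Gm49395, is identical to Pelo over 607 bases. Ttc37, the SKI scaffold, and Hbs1l, the partner of pelota, had ratios of 0.921 and 0.735 with overlap. A pseudogene, Gm9923, is 99.9% identical to Hbs1l over 1836 bases. Of 10 other 3′ exonuclease genes, 2 (Eri1 and Usb1, the latter named after its value was seen and with overlap) passed 2-fold upwards and 0 downwards, beside 18.3% and 6.84%. With the filter on a mean FPKM of at least 5, which leaves out Eri1 and Usb1, 0 passed upwards. Eri1, which trims histone mRNA ends, had 2.01 ± 1.35 and 5.28 ± 0.860 FPKM, 2.63-fold higher with no overlap. Rexo2, an oligonucleotide-degrading enzyme of mitochondria, was 1.70-fold lower with no overlap, and Pan3, of a deadenylase, 1.72-fold lower with overlap and 2.29-fold without KO oocyte 3.

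Of 14 compared decapping and 5′ decay genes, 0 were 2-fold higher and 1 was 2-fold lower, and of 11 genes of nonsense-mediated decay, 0 and 1, beside 18.3% and 6.84% of all compared genes. The lower genes, Pnrc2 and Smg6, were named after their values were seen, overlapped between genotypes, and were not 2-fold lower with FPKM rescaled to the same sum. With that scaling 1 decapping and 5′ decay gene was 2-fold higher. The most abundant members overlapped between genotypes. Lsm5 and Lsm7, of the ring that binds shortened mRNA tails, had ratios of 0.646 and 1.15, and pseudogenes of both are over 95% identical to them. The helicase gene Upf1 had means of 219.6 ± 45.2 (WT) and 152.1 ± 94.2 FPKM (KO), and Magoh, of the exon junction complex, 956.6 ± 128.2 and 897.1 ± 92.3. The median differences were -0.24 for decapping and 5′ decay and -0.23 for nonsense-mediated decay, beside -0.01 for nuclear cofactors, 0.15 for SKI and ribosome rescue, -0.09 for other 3′ exonucleases, -0.41 for RNase P and MRP, 0.02 for pre-rRNA processing and -0.24 for the 10 exosome genes.

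Protein subunits of RNase P and MRP, and factors that process ribosomal RNA, differed in both directions. Of 7 RNase P and MRP genes, 1 passed 2-fold upwards (Pop4, named after its value was seen, with overlap) and 1 downwards, beside 18.3% and 6.84%. Rpp21 had means of 9.70 ± 2.27 (WT) and 1.69 ± 0.836 FPKM (KO), 5.75-fold lower with no overlap. Pop7 was 1.87-fold lower with no overlap, and leaving out WT oocyte 4 or KO oocyte 1 gave folds of 2.03 and 2.02, while Rpp38 had a ratio of 1.29 with overlap. Of 34 compared pre-rRNA processing genes, 4 passed 2-fold upwards and 2 downwards, beside the same 18.3% and 6.84%. Of these, Imp4, Nhp2 and Imp3, named after their values were seen, overlapped between genotypes. Utp11, a factor of the small-subunit processome, averaged 12.6 ± 5.33 and 76.1 ± 19.5 FPKM, 6.04-fold higher with no overlap. Rrp36 had a ratio of 2.55, or 1.92 when WT oocyte 5 was left out, and Wdr36, another processome gene, was 2.79-fold lower, both with no overlap. Mphosph10, of the same processome and unrelated to Mphosph6 by sequence, and Dkc1, a pseudouridine synthase, had ratios of 0.849 and 0.928 with overlap.

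**Figure D4:**
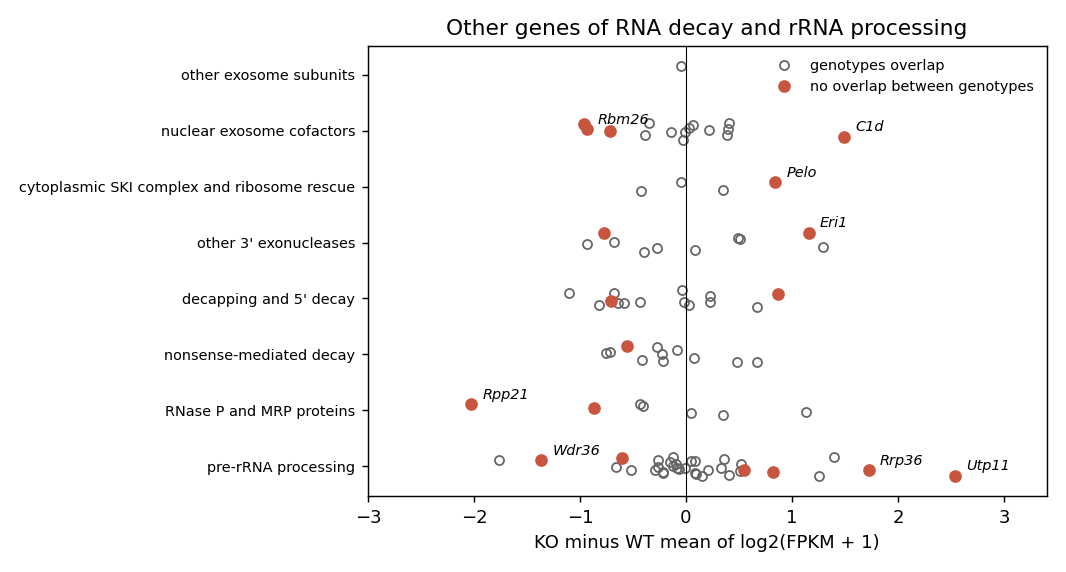
KO minus WT difference of mean log2(FPKM + 1) for each compared gene of 8 lists (1 row each; vertical scatter within a row only separates points). Filled points are genes without overlap between genotypes, and names mark those that also differ by at least 2-fold; Utp11 lies farthest right and Rpp21 farthest left.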

How the data were processed

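Single-oocyte cDNA was made and amplified with a SMARTer ultra-low-input kit and sequenced on an Illumina HiSeq, per the labels' protocols. The authors deposited 1 table of FPKM per gene and oocyte. Per the submitters' processing notes, build mm9 was used with edgeR 3.1.10, HTSeq, TopHat2 2.0.2, Bowtie2 and Bowtie 0.12.8; their roles are not stated there. No source used here gives the annotation, the strand setting or the treatment of reads that fit several places. Symbols matched 32897 of 37620 identifiers. Coordinates and exons are from GENCODE M21 on GRCm38, and none was converted.

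Reads were recovered as the smallest whole numbers, within 0.001, that fit all 8 values of a gene, given the inferred library totals. Amplified reads are not independent molecules, so read counts cover counting error only. Each difference subtracts the WT from the KO mean of log2(FPKM + 1), and folds are ratios of mean FPKM; the log scale understates changes of low genes. The genes and lists were chosen with earlier results of these data known. All 10 genes are named; in each list up to 2 genes per direction with the largest 2-fold, non-overlapping differences and the 2 with the highest mean are named, with both core nuclease genes. The calculations were tested on simulated data. Alternatives covered a replicate block, the omission of single oocytes, scaling, filters, medians and the pseudocount. Python 3.11.15, pandas 2.3.3 and blastn 2.17.0 (copies of at least 95% identity over 200 bases) were used.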

Additional observations from a re-analysis of the deposited data

Results flagged for a closer look

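An oocyte was marked where its gap to the nearest of the other 3 exceeded, as a share of the range of its genotype, Dixon's critical value for 4 samples. Chance marks about 1 in 20 groups, and 5 of 80 groups of named genes were marked. Exosc1 in KO oocyte 3 had 70.7 FPKM, where the other KO oocytes had 42.5 to 46.8. Exosc5 in KO oocyte 6 had 2.85 FPKM, where the others had 0 to 0.225. C330018D20Rik in KO oocyte 1 had 32.6 FPKM, where the others had 19.4 to 21.3. Tent4a in KO oocyte 1 had 52.4 FPKM, where the others had 70.8 to 73.4. Utp11 in WT oocyte 2 had 20.5 FPKM, where the others had 9.42 to 11.1.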

How the results depend on the processing

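Exosc8 was at least 2-fold lower in KO, with no overlap, in every alternative run. Leaving out each oocyte moved the count of genes at least 2-fold lower between 1 and 3, that of genes at least 2-fold higher between 0 and 1, that of genes without overlap between 3 and 4, and the median difference between -0.27 and -0.11. Without WT oocyte 1 Exosc8 alone was 2-fold lower, and without KO oocyte 6 Exosc5 joined. With FPKM rescaled to the same sum, 1 gene, Exosc8, was without overlap. The oocyte numbers 1 and 5 occur in both genotypes but the labels do not say that they pair oocytes, and the deviations of same-numbered oocytes correlated at 0.03 and 0.07 over genes. A replicate block, which rests on these 4 oocytes, gave 6 genes without overlap, where 47.9% of compared genes had none. It gave 3 genes at least 2-fold lower, Exosc3, Exosc5 and Exosc8, where 10.8% of compared genes were. Exosc5 did not pass the filter. With the block the median was -0.45 and Exosc3 was 3.73-fold lower. The median was -0.37 with medians over oocytes, -0.35 with median-of-ratios scaling, -0.34 with upper-quartile scaling, -0.28 with a pseudocount of 0.1 and -0.16 with a pseudocount of 5. With no filter, 15.6% of 18416 genes were at least 2-fold lower. The differences of Exosc1, Exosc2, Exosc5, Exosc9 and Exosc10 changed sign in 1 or more alternatives. Low reads limit Exosc5, Exosc4 and Dis3.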
